A study of Arabidopsis thaliana with 15 samples.

Results

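The genes described here are 33 nuclear genes of Arabidopsis thaliana that encode subunits of the photosynthetic electron transport chain other than the antenna proteins, out of 33323 genes listed. They were taken by locus. Photosystem I is represented by 12 genes: PSAD1 (AT4G02770), PSAD2 (AT1G03130), PSAE1 (AT4G28750), PSAE2 (AT2G20260), PSAF (AT1G31330), PSAG (AT1G55670), PSAH1 (AT3G16140), PSAH2 (AT1G52230), PSAK (AT1G30380), PSAL (AT4G12800), PSAN (AT5G64040) and PSAO (AT1G08380). Photosystem II is represented by 11. Of these, 6 belong to the oxygen-evolving complex: PSBO1 (AT5G66570), PSBO2 (AT3G50820), PSBP1 (AT1G06680), PSBQ1 (AT4G21280), PSBQ2 (AT4G05180) and PSBR (AT1G79040). The other 5 encode small or auxiliary proteins: PSBW (AT2G30570), PSBX (AT2G06520), PSBY (AT1G67740), PSBTN (AT3G21055) and PSB27 (AT1G03600). Plastocyanin and the Rieske protein are encoded by 3 genes, PETE1 (AT1G76100), PETE2 (AT1G20340) and PETC (AT4G03280), and subunits of the chloroplast ATP synthase by 3, ATPC1 (AT4G04640), ATPD (AT4G09650) and ATPG (AT4G32260). Ferredoxin and its reductase are encoded by 4, FD1 (AT1G10960), FD2 (AT1G60950), FNR1 (AT5G66190) and FNR2 (AT1G20020). All 33 passed the filter on low counts in every comparison. The RNA came from the aerial part of wild-type Columbia-0 seedlings, stratified for 4 days and then grown on agar plates in darkness at 22 °C for 4 days (Dark). L4h seedlings were given another 4 h in white light of 100 µmol per square metre and second, and D4h seedlings stayed dark for those 4 h. Total RNA was sequenced from all 3 conditions, and polysome-bound RNA, the mRNA carried by ribosomes, from Dark and L4h only, so there are 5 groups of 3 libraries. The labels number 3 replicates in each group, whereas the series description speaks of 2, which the sources used here do not settle, and each n of 3 follows the labels. No group carries a mutation or transgene, and how many seedlings were pooled for a library is not given in the sources used here.

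Photosynthetic electron transport starts at photosystem II, which oxidises water at the manganese cluster of the oxygen-evolving complex, shielded by lumenal proteins of that complex. Transport runs on through the cytochrome b6f complex and the soluble copper protein plastocyanin to photosystem I. Photosystem I passes the electrons to ferredoxin, and ferredoxin-NADP reductase makes NADPH with them, while the proton gradient drives the ATP synthase. The reaction-centre cores are made inside the plastid, and the subunits described here are made in the cytosol and imported. A seedling kept in darkness holds etioplasts without working photosystems, and light starts greening.

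Depth ran from 60.8 to 101 M reads over all listed genes, and the least covered of these genes, PSBO2 in a Dark library, still had 998 reads, so counting error is small beside the spread between libraries. Replicate 1 stood apart from replicates 2 and 3 in most groups. Summed over the 33 genes, RPKM (reads per kilobase of gene and per M reads, as deposited) was 3910, 1621 and 1242 in the 3 Dark libraries of total RNA. It was 17777, 2365 and 2269 in D4h, and 23220, 15206 and 21994 in L4h. In polysome-bound RNA it was 16852, 3019 and 2202 in Dark and 80939, 28452 and 22726 in L4h. All 33 genes were highest in replicate 1 of the D4h, the Dark polysome and the L4h polysome libraries. D4h replicate 1 also had 190 RPKM of ELIP1, an early light-induced protein, and 1240 RPKM of PORA, a protochlorophyllide reductase abundant in darkness, whereas D4h replicates 2 and 3 had 3.92 and 3.99 RPKM of ELIP1 and 151 and 145 of PORA. D4h replicates 2 and 3 differed by a median of 0.0619 log2 units over all genes, against 0.134 to 0.675 for other pairs within a group, but by more than counting noise, and were counted as 2. The sources used here do not say if both came from 1 sample, in which case D4h has an n of 2. Dark polysome replicate 1 also had more of these state markers than Dark polysome replicates 2 and 3, with ELIP1 at 38.7 against 2.38 and 3 RPKM PORA at 311 against 91.7 and 67.6, and CHS (chalcone synthase) at 13.3 against 2.22 and 4.8. Labels do not say whether replicates came from separate plantings, so p-values measure only the spread between these libraries. In L4h against Dark total RNA, PORA fell by 5.32 on the log2 scale (adjusted p = 0.011) and ELIP1 rose by 8.44 (adjusted p = 0.014). The L4h total RNA libraries were uneven in ELIP1, at 168, 629 and 980 RPKM, and in CHS, at 99.3, 378 and 439. L4h replicate 1 had less of both than D4h replicate 1, where CHS was at 102 RPKM. PORA was low in all L4h total RNA libraries, at 2.29, 0.845 and 4.75 RPKM. Of 10 root markers, 7 stayed at or below 0.62 RPKM in every library, while CASP1, CASP2 and MYB36 of the endodermis were detected in every library. MYB36 ranged from 15.9 to 36.3 RPKM, CASP2 from 74.2 to 274 and CASP1 from 105 to 482. CASP1 was lowest in replicate 1 of each total RNA group and highest in replicate 1 of both polysome groups. It had 134, 399 and 337 RPKM in Dark total RNA and 105, 263 and 312 in L4h total RNA. The summed root markers ranged from 252 to 644 RPKM in Dark and from 206 to 528 in L4h total RNA, and their part in the results was not tested.

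**Figure D1:**
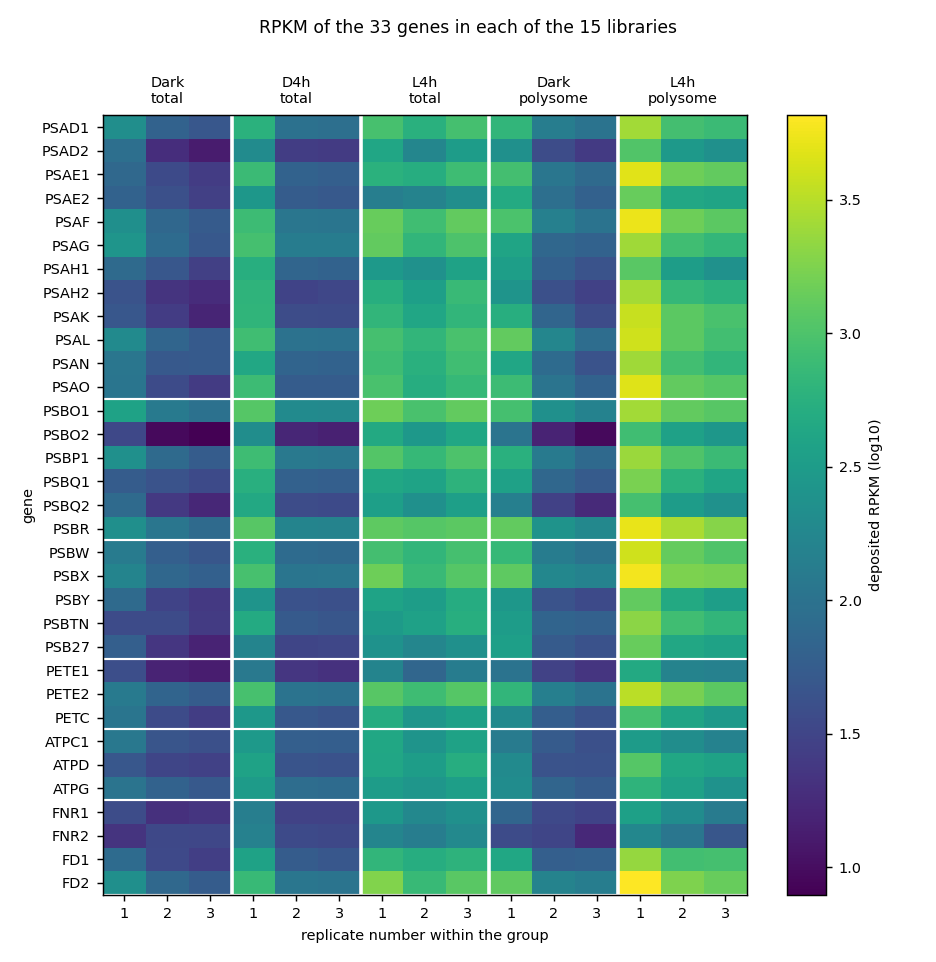
Deposited RPKM on a log10 colour scale for each of the 33 genes (rows, with white lines between functional classes) in each of the 15 libraries (columns, by group and replicate number). In total RNA the L4h columns are brighter than the Dark columns for all 33 genes, and replicate 1 is brighter than replicates 2 and 3 of the D4h and both polysome groups.

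**Figure D2:**
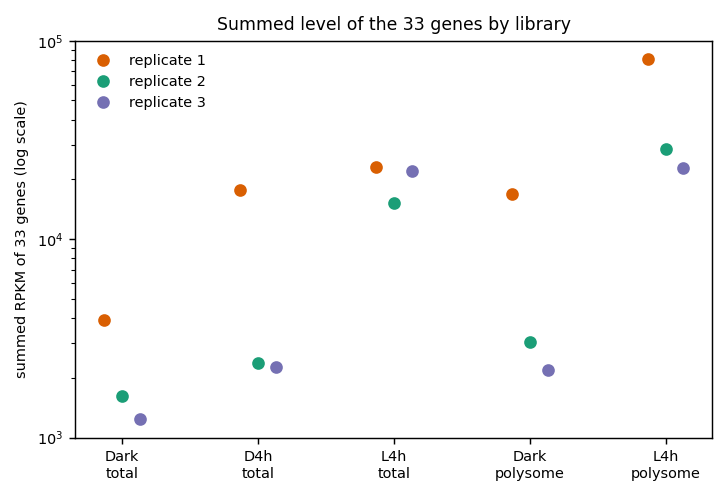
Summed RPKM of the 33 genes (log axis) in each library, with 1 point per library coloured by replicate number. D4h replicate 1 lies at 17777, among the L4h values of total RNA, while the other D4h libraries lie near the Dark libraries.

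Before the seedlings saw light, the mRNAs were present at unequal levels. In Dark total RNA the highest mean level per length was that of PSBO1, which encodes the main form of the manganese-stabilising protein, at 202 ± 157 RPKM (SD, n = 3). PSBR, another lumenal protein of photosystem II, followed at 137 ± 74.6 and PSAG at 132 ± 114, and these neighbours did not differ beyond their spread. The lowest was PSBO2, the second gene for the manganese-stabilising protein, at 16.9 ± 14.5. In L4h the order ran from PSBO1 at 1250 ± 271 and FD2 at 1250 ± 549 down to FNR2 at 164 ± 26.2 and PETE1 at 123 ± 46.6. Across the 33 genes the ranks of the mean levels in Dark and L4h total RNA correlated at Spearman rho 0.79, a description over genes that share libraries.

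In total RNA, mRNAs of every functional class were higher after 4 h of light than in Dark, a comparison in which the L4h seedlings were also 4 h older. Of the 33 genes, 27 rose in L4h against Dark and none fell (quasi-likelihood test of edgeR, p adjusted by Benjamini-Hochberg over 21735 genes and under 0.05), where 12.6% of all genes tested rose. The median log2 change of the 33 was 3.17, a 9-fold difference, against -0.02 over all genes tested. Every L4h library lay above every Dark library for all 33, and 22.8% of all genes had such a gap. More cells of a type and more RNA per cell cannot be told apart in such bulk RNA. The count moved with single libraries: it was 0 without Dark replicate 2 or without Dark replicate 3, 12 without L4h replicate 1 or 2 and 4 without L4h replicate 3. With D4h replicate 1, which enters only through the spread, kept out of the fit, 33 rose, where 18% of all genes did. With the replicate number as a block 33 rose as well (15.5% of all genes), and without the libraries numbered 1 again 33 (24%). The fits without D4h replicate 1 keep D4h replicates 2 and 3, which differ little from each other, in the estimate of the spread. Their part in these counts was not tested. The direction was upward for each gene under all 16 alternatives.

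Among photosystem I genes 8 of 12 rose, with a median of 3.14 log2 units. PSAK (AT1G30380), an antenna-side membrane subunit, had 49.1, 26.0 and 16 RPKM in the Dark libraries and 664, 419 and 656 in L4h. It rose by 4.28 ± 1.15 log2 units (SE, adjusted p = 0.031), and the lowest L4h library lay far above the highest Dark one. PSAF, whose lumenal side docks plastocyanin, had 227, 74.5 and 54.6 RPKM in Dark and 1380, 837 and 1290 in L4h, a rise of 3.32 ± 0.911 (adjusted p = 0.033). PSAO, PSAL and PSAH take part in the docking of the mobile antenna during state transitions. PSAO had 107, 36.8 and 25.5 RPKM in Dark and 960, 520 and 706 in L4h (3.71 ± 1.12, adjusted p = 0.045). PSAL had 198, 71.1 and 53.1 RPKM in Dark and 895, 650 and 939 in L4h (2.96 ± 0.916, adjusted p = 0.049). PSAN, a lumenal subunit, had 109, 51.4 and 53.0 RPKM in Dark and 807, 562 and 827 in L4h (3.39 ± 0.784, adjusted p = 0.019). In each of these the Dark libraries ran lower than every L4h library, and Dark replicate 1 was the highest of its group.

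The 4 photosystem I genes that did not pass were PSAD2, PSAE2, PSAG and PSAH1. PSAG, which binds at the antenna side, had 262, 83.2 and 50.2 RPKM in Dark and 1300, 661 and 993 in L4h, with a difference of 2.92 ± 0.915 log2 units (adjusted p = 0.051). PSAD2, 1 of a pair of genes for the stromal subunit that docks ferredoxin, had 91.8, 19.0 and 13.3 in Dark and 424, 174 and 323 in L4h (2.91 ± 1.04, adjusted p = 0.075). Its partner PSAD1 had 216, 65.0 and 48.9 in Dark and 922, 556 and 891 in L4h and rose by 2.86 ± 0.861 (adjusted p = 0.045). The point estimates of the pair are close, and Dark replicate 1 was several times the other Dark libraries in both.

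In photosystem II 10 of 11 genes rose. PSBO1 had 382, 126 and 96.7 RPKM in Dark and 1500, 960 and 1300 in L4h (2.65 ± 0.817, adjusted p = 0.048). PSBO2 (AT3G50820) had 33.7, 9.29 and 7.89 RPKM in Dark and 472, 286 and 428 in L4h. Its rise of 4.56 ± 1.17 log2 units (adjusted p = 0.027) was the largest point estimate of the 33 genes. PSBP1, which helps retain calcium and chloride at the manganese cluster, had 228, 80.7 and 56.5 in Dark and 1090, 707 and 1010 in L4h (2.96 ± 0.87, adjusted p = 0.041). PSBR had 222, 109 and 80.8 in Dark and 1250, 1110 and 1190 in L4h (3.13 ± 0.803, adjusted p = 0.026). The L4h levels of PSBR were closer to each other than those of the other oxygen-evolving genes. PSBQ2 had 80.2, 24.3 and 16.8 in Dark and 352, 232 and 353 in L4h and did not pass (2.97 ± 1.06, adjusted p = 0.077).

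All 5 small or auxiliary proteins of photosystem II passed, with a median of 3.39 log2 units. PSBTN (AT3G21055), the nuclear-encoded T subunit, had 36.5, 37.0 and 25.5 RPKM in Dark and 305, 374 and 540 in L4h (3.65 ± 0.865, adjusted p = 0.02). Unlike most of these genes, its Dark replicate 1 was level with replicate 2. PSBX had 165, 73.6 and 62.6 in Dark and 1490, 746 and 1100 in L4h (3.50 ± 0.91, adjusted p = 0.027). PSBW had 129, 60.3 and 47.2 in Dark and 884, 657 and 896 in L4h (3.39 ± 0.814, adjusted p = 0.021), and PSBY rose by 3.20 ± 0.806 (adjusted p = 0.025). PSB27, a lumenal assembly and repair factor, had 60.6, 22.9 and 15.4 in Dark and 240, 171 and 231 in L4h (2.72 ± 0.751, adjusted p = 0.034).

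Between the photosystems, PETE2 (AT1G20340), the major plastocyanin gene, had 125, 68.5 and 55.5 RPKM in Dark and 1130, 806 and 1100 in L4h (3.63 ± 0.897, adjusted p = 0.023). PETE1, the minor one, had 40, 15.3 and 13.6 in Dark and 164, 72.3 and 132 in L4h and did not pass (2.45 ± 0.769, adjusted p = 0.051). PETC, the Rieske iron-sulphur protein of cytochrome b6f, had 108, 36.3 and 26.9 in Dark and 505, 268 and 361 in L4h (2.75 ± 0.832, adjusted p = 0.045). In all 3 the groups did not overlap.

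The 3 ATP synthase genes passed, with a median of 2.42 log2 units. ATPG (AT4G32260), annotated as an F0 subunit of the b type, had 106, 64.7 and 52.2 RPKM in Dark and 323, 271 and 341 in L4h, and its rise of 2.10 ± 0.533 (adjusted p = 0.026) was the smallest of the 27 that passed. ATPC1, the gamma subunit, had 115, 47.0 and 40.7 in Dark and 433, 258 and 377 in L4h (2.42 ± 0.707, adjusted p = 0.041). ATPD, the delta subunit, had 49.3, 31.8 and 29.2 in Dark and 417, 332 and 525 in L4h (3.56 ± 0.839, adjusted p = 0.02). The Dark libraries of ATPD lay close together. Whether the subunits differ in their response was not tested.

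At the acceptor side all 4 genes rose. FD2, the major leaf ferredoxin, had 223, 76.2 and 56.1 RPKM in Dark and 1830, 739 and 1170 in L4h (3.42 ± 0.922, adjusted p = 0.031). FD1, the minor leaf form, had 83.4, 35.1 and 27.7 in Dark and 659, 522 and 610 in L4h (3.63 ± 0.844, adjusted p = 0.019). FNR1 (AT5G66190) had 37.5, 20.0 and 22.1 in Dark and 286, 182 and 233 in L4h, a rise of 3.17 ± 0.641 with the lowest adjusted p of the 33 genes, 0.012. FNR2 had 21.9, 34.2 and 33.2 in Dark and 166, 137 and 189 in L4h (2.51 ± 0.554, adjusted p = 0.016), and its Dark replicate 1 was the lowest of its group rather than the highest.

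**Figure D3:**
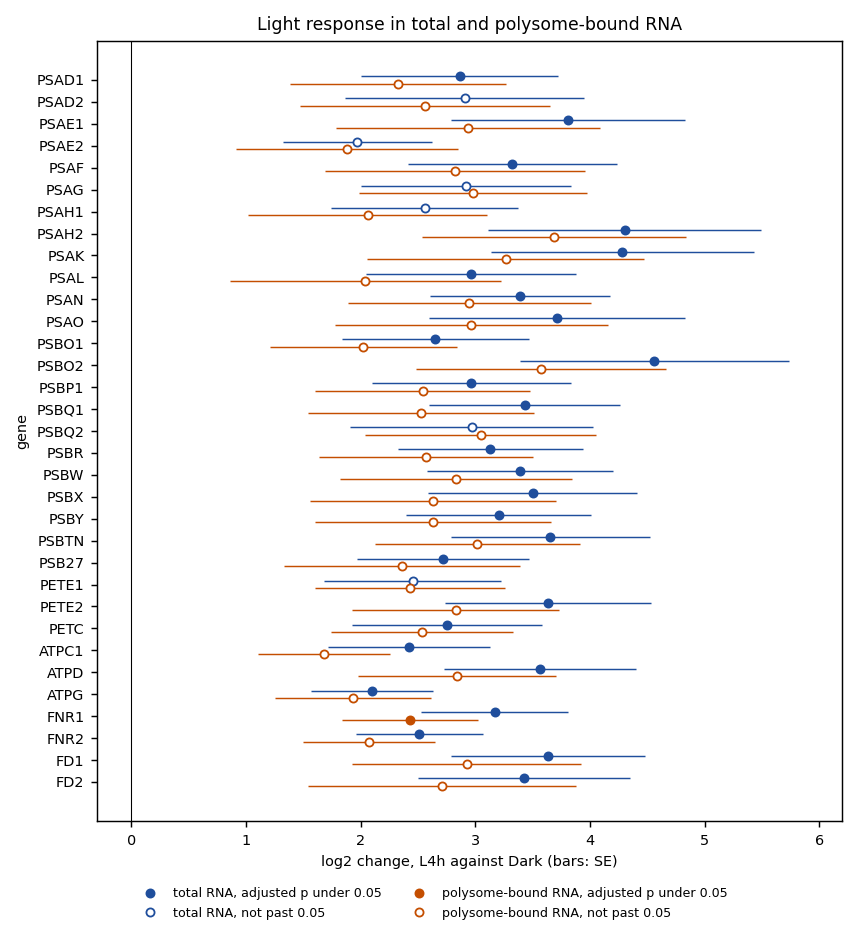
Log2 change of each of the 33 genes in L4h against Dark with its SE (bars), in total RNA (blue) and polysome-bound RNA (orange), filled where the adjusted p was under 0.05. Every estimate lies above 0 in both kinds of RNA, and 27 of total RNA and 1 of polysome-bound RNA are filled.

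In 5 of 8 gene pairs the shares of the partners did not overlap between Dark and L4h in at least 1 kind of RNA. How often other pairs of genes do so was not counted, and the count only describes these 8 pairs. The share of a gene in the summed RPKM of its pair uses both genes of the same library. Coding sequences of the pairs were 75 to 88% identical, and no pair shared an identical stretch of 50 bases, and the read length is not given in the sources used here. PSAE1 made up 54.2, 47.2 and 47.8% of the PSAE pair, a stromal subunit near the ferredoxin site, in the 3 Dark libraries of total RNA and 80.5, 76.9 and 78.9% in L4h. PSAE2 (65.4, 40.4 and 28.5 RPKM in Dark, 140, 158 and 220 in L4h) had the smallest difference of the 33 genes, 1.97 ± 0.646 log2 units (adjusted p = 0.058), and PSAE1 (77.4, 36.0 and 26.1, then 578, 526 and 823) rose by 3.81 ± 1.02 (adjusted p = 0.03). In polysome-bound RNA the PSAE1 share was 58.0 ± 5.32% (SD, n = 3) in Dark and 77.1 ± 0.715% in L4h. In Dark total RNA both genes were near equal, in Dark polysome-bound RNA PSAE1 held 54.2 to 64.1%, and PSAE1 led in every L4h library.

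By deposited RPKM the PSAH pair had opposite orders in Dark and L4h. PSAH1 held 64.6, 69.5 and 60.4% of the pair in Dark and 35.4, 40.5 and 33.8% in L4h. PSAH2 (44.2, 21.6 and 18.5 RPKM in Dark, 534, 350 and 748 in L4h) rose by 4.30 ± 1.19 log2 units (adjusted p = 0.034), and PSAH1 (80.5, 49.1 and 28.3, then 293, 238 and 381) differed by 2.56 ± 0.818 (adjusted p = 0.054). In polysome-bound RNA the PSAH1 share was 59.5 ± 1.82% in Dark and 30.9 ± 1.98% in L4h. So by deposited RPKM PSAH1 was the larger partner in all 6 Dark libraries and the smaller in all 6 L4h libraries. PSAH1 is listed at 665 bases against 1300 in the annotated mRNA, and PSAH2 at 664 against 702. Which partner is larger in Dark therefore rests on the listed lengths, whereas the direction of the shift in share does not.

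PSBO1 held 92.5 ± 0.619% of the PSBO pair in Dark and 76.1 ± 0.94% in L4h total RNA, and 92.5 ± 2.66% and 77.9 ± 2.45% in polysome-bound RNA. PETE1 held 20.7 ± 3.13% of the plastocyanin pair in Dark and 10.6 ± 2.25% in L4h total RNA, and 16.2 ± 2.29% and 10.8 ± 1.85% in polysome-bound RNA. In these 4 pairs the L4h and Dark shares did not overlap in either kind of RNA. The PSBQ1 share did not overlap in polysome-bound RNA, where it was 73.3 ± 1.94% in Dark and 64.2 ± 0.973% in L4h. In total RNA it overlapped (58.0 ± 14.6% and 60.4 ± 4.38%), with Dark replicate 1 at 41.2%. The shares of PSAD1 (75.4 ± 4.57% and 72.7 ± 3.9% in total RNA), FNR1 (46.7 ± 14.3% and 58.5 ± 4.17%) and FD1 (30.6 ± 3.01% and 34.0 ± 7.46%) overlapped between Dark and L4h in both kinds of RNA. Each non-overlapping share had p = 0.1 in a two-sided exact permutation test, the smallest that 3 against 3 libraries allow, and 0.178 adjusted over the 16 shares tested, so none can pass 0.05.

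The shares also describe the D4h libraries. In D4h replicates 2 and 3 PSAE1 held 54.1 and 53.9%, PSAH1 69.5 and 66.8%, and PSBO1 92.3 and 92.9%, all near the Dark values. In D4h replicate 1 they were 73.6, 46.1 and 83.9%, between the Dark and L4h values. PETE1 held 18.2 and 17.4% in D4h replicates 2 and 3, and 11.3% in D4h replicate 1, which is within the L4h range of 8.23 to 12.7%.

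**Figure D4:**
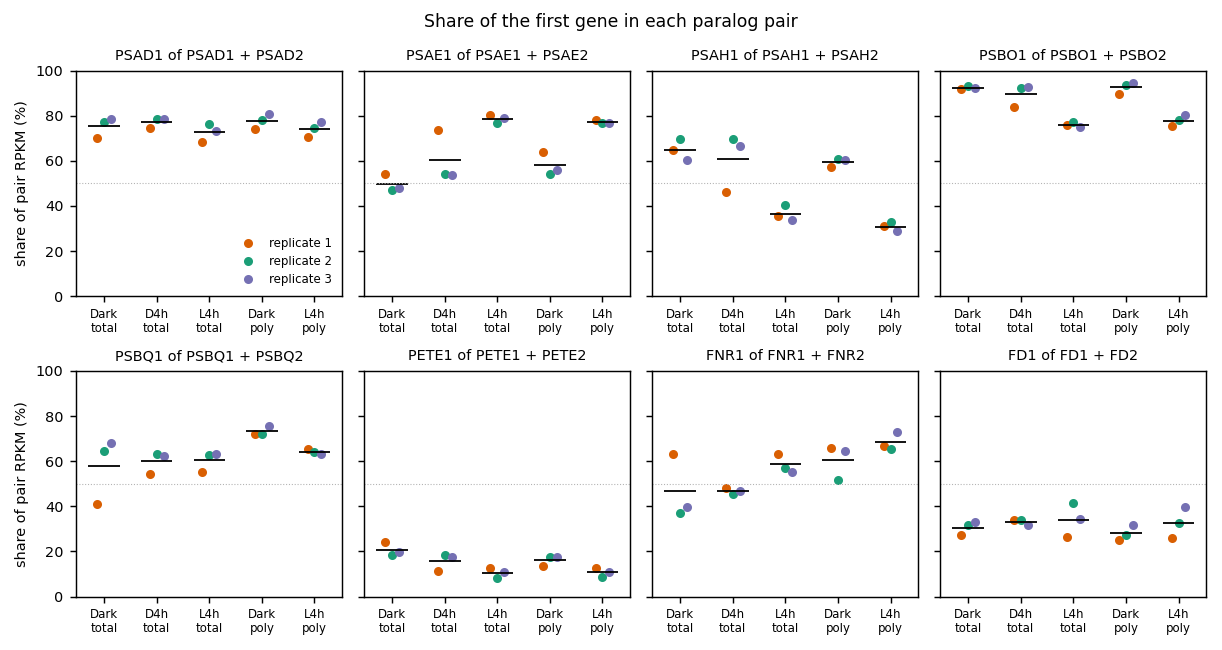
Share of the first gene in the summed RPKM of each of 8 gene pairs (percent), with 1 point per library coloured by replicate number and a bar at the mean of each group; poly marks polysome-bound RNA. The PSAE, PSAH, PSBO and PETE panels show L4h points apart from the Dark points in total and polysome-bound RNA, and the PSAH points cross the dotted 50% line.

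The sequence just before the annotated start was read for the 33 genes from TAIR10.1, since the files hold no coordinates. The G-box CACGTG, to which bZIP and bHLH factors of light signalling are known to bind, was found in the 250 bases upstream of 6 of 33 genes (18.2%), on either strand, the motif being its own reverse complement, and in 6.49% of 27443 nuclear promoters. These were PSAE2, PSAH2, PSBQ1, PSBQ2, PSBTN and ATPD. The I-box core GATAAG, both strands, was found in 9 genes (27.3%, against 12.3% of all promoters), CCAATC, both strands, in 5 (15.2% against 10.2%) and TATAAA on the gene's strand in 10 (30.3% against 32.9%). No searched motif contains another. Bases upstream of 4 genes with a G-box and of PSAH1, the partner of PSAH2 with no G-box in its 250 bases, are shown because they belong to the pairs above or, for PSBTN, to a gene whose Dark libraries lay close together. Capitals mark matches to the searched motifs, and each run of 120 bases ends just before the start and touches no other annotated gene:
PSAE2 (chr2:8736614-8736733, plus strand): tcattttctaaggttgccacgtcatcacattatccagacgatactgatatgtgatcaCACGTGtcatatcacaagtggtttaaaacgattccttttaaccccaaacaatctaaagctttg
PSAH1 (chr3:5469595-5469714, minus strand): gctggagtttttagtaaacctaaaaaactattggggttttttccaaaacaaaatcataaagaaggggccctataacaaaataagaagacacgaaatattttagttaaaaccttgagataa
PSBQ1 (chr4:11334232-11334351, plus strand): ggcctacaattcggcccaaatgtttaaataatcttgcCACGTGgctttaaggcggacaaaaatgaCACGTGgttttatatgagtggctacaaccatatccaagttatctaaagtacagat
PSBQ2 (chr4:2673244-2673363, minus strand): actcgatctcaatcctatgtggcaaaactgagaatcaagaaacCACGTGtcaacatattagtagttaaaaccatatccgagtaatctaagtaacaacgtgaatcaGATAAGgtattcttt
PSBTN (chr3:7377227-7377346, minus strand): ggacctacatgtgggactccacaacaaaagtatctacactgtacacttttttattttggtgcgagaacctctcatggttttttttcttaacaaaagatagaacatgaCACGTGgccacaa

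The G-box lay 63 bases before the start of PSAE2, at 83 and 55 bases in PSBQ1, at 77 in PSBQ2, which has another at 145 outside the printed run, and at 13 in PSBTN. The PSBQ partners both have it upstream, and of the PSAE and PSAH partners 1 each has it: PSAE2, with the smaller light difference of its pair, and PSAH2, with the larger. In PSAH2 it lay at 67 and 12 bases. No run of PSAH2 is printed, since its last 120 bases overlap another annotated gene, AT1G52220. The 250 bases upstream of PSAE2, PSBQ1, PSBTN and ATPD also overlap another annotated gene, and those of PSBQ2 do not. A match describes these letters and not a binding site. By the same annotation PSAE2 lies at chr2:8736734-8737767 in 3 exons, PSAE1 at chr4:14202758-14204061 in 3, PSAH1 at chr3:5467987-5469594 in 3 and PSAH2 at chr1:19454798-19455668 in 3. PSBO1 lies at chr5:26568572-26570461 and PSBO2 at chr3:18890874-18892508. Of the 33 genes 11 overlap another annotated gene, PSAE1, PSAE2, PSAH1 and PSAH2 among them, and the strand of the libraries is not known, so reads of those neighbours cannot be told apart where they overlap.

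A further 4 h of darkness moved no gene past the threshold: in D4h against Dark 0 of 33 rose, as did 0% of all genes (edgeR), with 9 of the 33 at an unadjusted p under 0.05. DESeq2 called none of the 33 either. The median log2 difference of the 33 was 1.45. Only 2 genes, PSBQ1 and PSBTN, had D4h above Dark in all libraries, about the share found over all genes (6.01%). PSBQ1 had 547, 63.3 and 59.9 RPKM in D4h against 56.2, 44 and 36.0 in Dark. Without D4h replicate 1 the median of the 33 was -0.02, and without all libraries numbered 1 it was 0.69. D4h replicates 2 and 3 lay mostly above Dark replicates 2 and 3 and mostly below Dark replicate 1.

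Against the D4h control, which has the age of the L4h seedlings, 0 of 33 passed in L4h (6.92% of all genes rose), and so no gene of any functional class, with a median difference of 1.51 log2 units. In 11 of them every L4h library lay above every D4h library, as it did in 16.7% of all genes. FNR1 had 286, 182 and 233 RPKM in L4h against 141, 29.9 and 29.8 in D4h (1.93 ± 0.611, adjusted p = 0.07, the lowest of the 33). The count turned on D4h replicate 1. Without it all 33 rose (15.3% of all genes), with a median of 3.17, and without the libraries numbered 1 also 33 (24.3%), with a median of 3.06. The control then holds only D4h replicates 2 and 3. If these came from 1 sample, its n is 1 and the p-values behind these counts are too small.

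In polysome-bound RNA the same direction was measured with a wider spread. Of the 33 genes 1, FNR1, rose in L4h against Dark (5.5% of 20975 genes rose), from 70.6, 34.5 and 30.5 RPKM to 359, 205 and 129, by 2.43 ± 0.594 log2 units (adjusted p = 0.045). The median over the 33 was 2.63 against -0.01 over all genes. In 29 of them every L4h library lay above every Dark library (15.5% of all genes). The other 4, PSAD2, PSAE2, PSAH1 and PSAL, overlapped through Dark replicate 1 on the scaled counts. PSAD2 did so narrowly, and its unscaled RPKM of 228 in Dark replicate 1 lay just under the 230 of L4h replicate 3. PSAL, for example, had 1310, 171 and 87.8 RPKM in Dark and 4040, 1210 and 861 in L4h (2.04 ± 1.18, adjusted p = 0.34). FD2 reached 6550 RPKM in L4h replicate 1, the highest value of the 33 genes in any library. The replicate numbers were taken to pair these libraries, a hint from the same data and not from the labels. With the number as a block all 33 rose (21.9% of all genes). Without Dark replicate 1 there were 32, and without both libraries numbered 1 also 32 (9.78% of all genes). Leaving out Dark replicate 2 or 3 or L4h replicate 1 or 2 left 0.

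Taking same-numbered libraries together, all 33 genes were higher in L4h than in Dark in each of the 3 pairs of total RNA, with median ratios of 6.13, 9.52 and 18.9 for numbers 1, 2 and 3. In the polysome-bound pairs the median ratios were 5.67, 9.91 and 9.7, again with all 33 higher. PSBO2 had the highest ratio in 5 of these 6 pairs, from 14.1 to 57.2 in total RNA, and PSAH2 in the sixth.

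Most of these mRNAs had a higher estimate in polysome-bound than in total RNA of the same condition, though few passed the test. In Dark 2 of 33 passed, PSAE1 (3.24 ± 0.99 log2 units, adjusted p = 0.041) and PSBTN (2.52 ± 0.72, adjusted p = 0.031), where 10.6% of all genes were higher on polysomes. The median was 1.81 against 0.00 over all genes, and in 6 genes the groups did not overlap (20.7% of all genes). PSAE1 had 868, 110 and 81.4 RPKM in polysome-bound RNA and 77.4, 36.0 and 26.1 in total RNA. PSBTN had 324, 69.3 and 63.8 in polysome-bound RNA and 36.5, 37.0 and 25.5 in total RNA. With the replicate number as a block 23 passed (16.7% of all genes), and without the libraries numbered 1 there were 19 (11.4%). Without Dark polysome replicate 1, the library with more ELIP1 and PORA than its group, the median was 0.40 and none passed, and the part of that state in the result was not tested. The count was 9 without Dark polysome replicate 2, 6 without replicate 3 and 0 without any 1 of the total RNA libraries.

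In L4h 0 of 33 passed for polysome-bound against total RNA (11.7% of all genes rose), with a median of 1.38 log2 units and 13 genes not overlapping (20.8%). PSAE2 had 1390, 449 and 400 RPKM on polysomes and 140, 158 and 220 in total RNA, the largest difference, 2.54 ± 0.832 (adjusted p = 0.051). ATPC1 (318, 212 and 157 on polysomes, 433, 258 and 377 in total RNA) and FNR2 (178, 110 and 47.4, against 166, 137 and 189) had the only negative estimates, -0.29 ± 0.563 and -0.18 ± 0.466. With the block 8 passed (17.6% of all genes), and without the libraries numbered 1 there were 9 (14.1%). Without L4h polysome replicate 2 the count was 1, and without replicate 1 the median was 0.18. Ratios within a number were 4.72, 1.77 and 1.07 in the median, and the lowest ratios were those of ATPC1, 1.05 in number 1, and of FNR2, 0.868 and 0.306 in numbers 2 and 3.

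Among the 33 genes, those of shorter listed length had the larger polysome-bound difference. The listed length was within 10% of the annotated mRNA of TAIR10.1 for 15 of the 33. PSAH1 is listed at 665 bases against 1300 in that annotation, and PSB27 at 780 against 1315. Whether the order holds with annotated lengths was not tested. Listed lengths ran from 0.552 kb (PSBTN) to 1.521 kb (ATPC1), and Pearson's r between length and the log2 difference was -0.73 in Dark and -0.86 in L4h, a description over 33 genes that share the same libraries. The 12 genes of 0.6 to 0.8 kb had a median of 2.44 in Dark and 1.89 in L4h, and the 5 genes of 1.2 kb or more had 1.04 and 0.36. All genes tested show the same order: 1.1 and 1.2 at 0.6 to 0.8 kb (1749 genes) and -0.22 and -0.23 at 1.2 kb or more (14560 genes). Within same-numbered libraries the median log2 ratio of the 33 was 2.39, 0.981 and 1.09 in Dark for numbers 1, 2 and 3. In L4h it was 2.24, 0.821 and 0.0942. Whether the 33 lie above genes of like length without the libraries numbered 1 was not tested. PSAG, of 0.78 kb, was the lowest of its length range, with 0.75 ± 0.883 in Dark. The light response in total RNA had r of -0.23 with length.

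**Figure D5:**
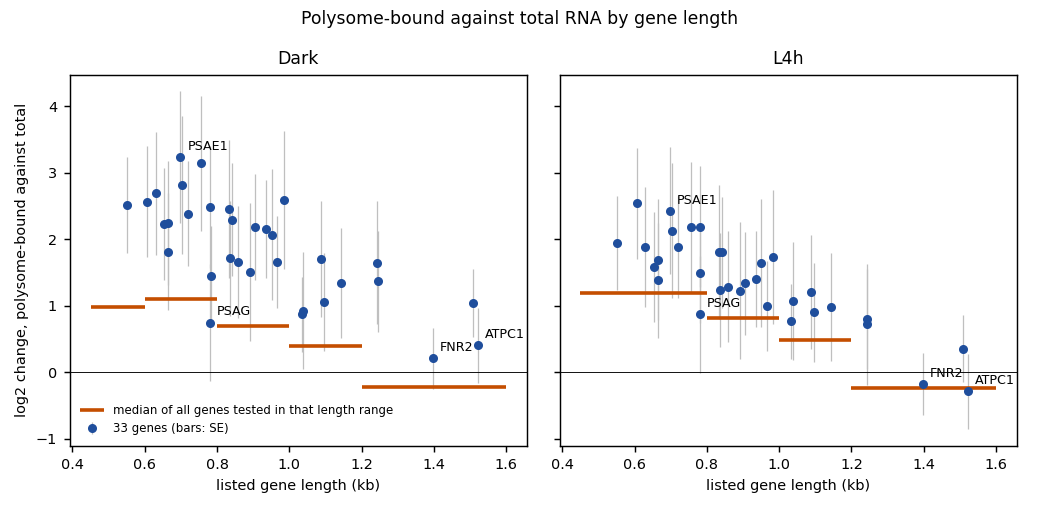
Log2 change of polysome-bound against total RNA with its SE against listed gene length (kb) for the 33 genes (points), in Dark (left) and L4h (right), with the median of all genes tested in each length range (orange; the last range takes in all genes of 1.2 kb or more). Points fall from left to right, and most lie above the median of all genes of like length. The estimates include replicate 1 of the polysome-bound libraries, without which the median of the 33 genes was lower in Dark and in L4h.

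No gene passed the test for a different light response in the 2 kinds of RNA. In this interaction test 0 of 33 passed in either direction, as did 0% of all genes upward and 0% downward (edgeR), and DESeq2 called none of the 33. The median was -0.51 log2 units, with 3 of 33 above 0, and none had an interaction larger than its SE. Without the Dark polysome replicate 1 the median was 1.07.

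Other genes of the same machinery rose in part in L4h against Dark in total RNA, where 12.6% of all genes rose. Of 15 tested genes listed as paralogs or minor forms of the 33, 9 rose and none fell, with a median of 2.22 log2 units. Some of the 15, PSB28 among them, are not paralogs of any of the 33. PSB28, a photosystem II assembly protein, had 4.21, 3.57 and 3.63 RPKM in Dark and 120, 115 and 153 in L4h (5.13 ± 0.992, adjusted p = 0.01). The PsbQ-like PQL1 had 0.737, 0.77 and 0.829 in Dark and 43.6, 18.6 and 28.2 in L4h (5.33 ± 1.07, adjusted p = 0.012), and the PsbP-like PPL2 rose by 3.61 ± 0.839 (adjusted p = 0.019). Both are subunits of the plastid NDH complex, whose names PnsL3 and PnsL1 the reference gives. FD3, a ferredoxin of non-green tissue, and ATPC2, a second gamma subunit gene, differed by -0.05 ± 0.174 and -0.04 ± 0.316 and did not pass.

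Of 11 genes of cyclic electron flow and the NDH complex 9 rose, with a median of 2.92 log2 units, among them NDHU (4.47 ± 0.997, adjusted p = 0.017), NDHN (3.64 ± 0.836, adjusted p = 0.019) and TIC62 (3.38 ± 0.744, adjusted p = 0.016), which anchors ferredoxin-NADP reductase at the thylakoid. Of 15 genes of photosystem II assembly and repair 9 rose, with a median of 1.64. CYP38, a lumenal immunophilin, had 22.7, 16.8 and 13.9 RPKM in Dark and 107, 73.9 and 96.7 in L4h (2.41 ± 0.529, adjusted p = 0.016). AT1G55480 rose by 3.83 ± 0.79 (adjusted p = 0.013), and VAR2, a subunit of the FtsH protease that degrades damaged photosystem II protein, by 2.41 ± 0.646 (adjusted p = 0.03). Of 9 genes of photosystem I assembly and phosphorylation 6 rose, with a median of 1.79. They included PPD1 (2.62 ± 0.615, adjusted p = 0.02), AT2G34860 (2.16 ± 0.641, adjusted p = 0.043) and STN7, the kinase of state transitions (2.50 ± 0.538, adjusted p = 0.015). Of 8 genes listed for cytochrome b6f and ATP synthase assembly 7 rose, with a median of 1.84, with AT1G49380 at 2.65 ± 0.546 (adjusted p = 0.013), AT4G34090 at 2.59 ± 0.587 (adjusted p = 0.018) and CRR28, a repeat protein that does not belong to that assembly, at 2.01 ± 0.526 (adjusted p = 0.028). None of the genes in these lists fell. Against the D4h control of the same age 0 of the 15 genes listed as paralogs or minor forms rose. Of the other lists 1 of 11, 1 of 15, 1 of 9 and 0 of 8 rose, in the order given here, where 6.92% of all genes did. In polysome-bound RNA 3 of 15, 3 of 11, 2 of 15, 2 of 9 and 1 of 8 rose in L4h against Dark, where 5.5% of all genes did.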

How the data were processed

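Read numbers were deposited by the authors as estimated counts per gene (expected counts, not normalized, with values within 1e-06 of a whole number for 84.4 to 87.2% of listed genes, those at 0 included, and for 78.5 to 81.1% of genes above 0), and were rounded for testing. RPKM was deposited by the authors per kilobase of listed gene length and per M reads, so levels compared between genes rest on the listed lengths. Genome build TAIR10 is given per the submitters' processing notes; aligner, counting tool, kit and strand are not given in the sources used here. The 33 members and all other gene lists (83 genes, all found) were chosen with earlier results of these data known.

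Tests used the quasi-likelihood F test of edgeR (version 4.0.16, in R 4.3.3) after scaling by TMM. Low genes were removed by filterByExpr at a minimum count of 10, and p was adjusted by Benjamini-Hochberg over all genes tested, with a threshold of 0.05. There were 3 fits: the 9 libraries of total RNA, the 6 of polysome-bound RNA, and the 12 Dark and L4h libraries for the contrasts between the kinds of RNA and their interaction with light. SE is the log2 change over the root of F. Levels per library are the deposited RPKM, ratios within a number are CPM scaled over 15 libraries, and shares of pairs were compared by an exact permutation test. Groups do not overlap where the scaled counts per M reads (CPM) of all libraries of one lie above all of the other. Alternatives were DESeq2 1.42.0, limma 3.58.1 on log2(RPKM + 1) and log2(RPKM + 0.1), other scaling and filters, a replicate block, all 15 libraries in a fit and each library left out. Another 3 were chosen after seeing the data: the omission of the libraries numbered 1, D4h replicate 1 kept out of the fit, and D4h replicates 2 and 3 summed.

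Replicate numbers were taken to pair libraries where the deviations of same-numbered libraries from their group means correlated above 0.1 for all 3 numbers, a hint from the data and not from the labels. Deviations cancel out within a group, so a replicate 1 that stands apart alike in both groups raises all 3 correlations. Libraries of unlike number were not compared, and the rule cannot tell such a replicate 1 from pairing of numbers 2 and 3. By that rule Dark paired with L4h, with correlations from 0.39 to 0.6 in total RNA and from 0.56 to 0.7 on polysomes. Both kinds of RNA paired too, from 0.28 to 0.47 in Dark and from 0.12 to 0.38 in L4h. D4h libraries did not pair with Dark (0.08 to 0.15) or L4h (-0.27 to 0.3). All 33 members are named, and of each other list up to 3 genes with the largest change past the threshold in L4h against Dark total RNA. FD3, ATPC2, MYB36, CASP1 and CASP2 were named after their values were seen. Sequences and positions are from RefSeq's TAIR10.1, since the files hold no coordinates.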

Additional observations from a re-analysis of the deposited data

How the results depend on the processing

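The number of genes that passed depended on how the spread between replicates was treated, and the cause was not tested except where fewer samples are fitted. For L4h against Dark in total RNA the count was 27, within 1.5 times under each alternative that keeps all libraries, and 0 to 28 with each library left out. With the replicate block it was 33. For L4h against D4h (0) it was 6 with DESeq2, 2 with limma at either pseudocount, 22 with the replicate block although the numbers do not pair D4h, 33 without the libraries numbered 1, and 0 to 33 with each library left out. The counts of 33 rest on D4h replicates 2 and 3 alone as the control. For L4h against Dark in polysome-bound RNA (1) it was 30 with DESeq2, 15 and 18 with limma on log2(RPKM + 1) and log2(RPKM + 0.1), 33 with the replicate block, 4 with all 15 libraries, 32 without the libraries numbered 1, and 0 to 32 with each library left out. For polysome-bound against total RNA in Dark (2) it was 10 with DESeq2, 4 with no filter and with the RPKM filter, 0 with limma and with all 15 libraries, 23 with the replicate block, 19 without the libraries numbered 1, and 0 to 9 with each library left out. In L4h (0) it was 2 with DESeq2, 1 with the RPKM filter, 8 with the replicate block, 9 without the libraries numbered 1, and 0 to 1 with each library left out. The counts of 0 for D4h against Dark and for the interaction, and the 0 members that fell in each comparison, did not change under any alternative run.

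Every light estimate of the 33 genes stayed positive. For polysome-bound against total RNA some estimates changed sign. In Dark FNR2 (0.21) was -0.0936 and -0.0986 with limma at the larger and smaller pseudocount and -0.258 without the libraries numbered 1, and in L4h FNR1 (0.36) was -0.117, -0.118 and -0.145. With each library left out, the Dark ranges were -0.27 to 2.94 for PSAD2, -0.739 to 1.80 for PSAG, -0.02996 to 2.17 for PSAN, -0.304 to 2.70 for PSBO2, -0.127 to 2.23 for PSBP1, -0.654 to 1.97 for PSBQ2, -0.334 to 1.08 for ATPC1, -0.0416 to 1.27 for ATPG and -0.1001 to 0.454 for FNR2, each lowest without Dark polysome replicate 1. The L4h ranges were -0.114 to 1.56 for PSAD2, -0.27 to 1.17 for PSAG, -0.177 to 0.988 for PSBO2, -0.0423 to 1.38 for PSBQ2, -0.00341 to 1.196 for PETC, -0.393 to 0.615 for FNR1 and -0.988 to 0.154 for FNR2, each lowest without L4h polysome replicate 1. Light minus Dark shares in total RNA ranged from -5.91 to 7.57 points for PSBQ1 and from -0.249 to 7.21 for FD1 with each library left out.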
